A study of Mus musculus with 13 samples.

Results

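The 10 genes described here are read as signs of alternative macrophage activation or belong to the chitinase-like and resistin-like families, and were followed in the lungs of mice given bleomycin or saline. They are Chil1, Chil3, Chil4, Chia1, Retnla, Retnlg, Arg1, Mrc1, Mgl2 and Cd163, chosen by symbol from the 54513 symbols of the deposited count table. All 10 had a row and all 10 passed the filter on low counts that left 20468 genes for testing. The study measured total RNA from a 10 µm section of formalin-fixed, paraffin-embedded lung per library, from male C57Bl/6 mice of 7 to 8 weeks, at day 21. The bleomycin group has 8 libraries and the saline group has 5. The labels put bleomycin replicates 5 to 8 and all saline libraries in batch 1 and bleomycin replicates 1 to 4 in batch 2, without saying what a batch stands for.

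Bleomycin is a drug that injures the lung and leaves scar tissue, and mice given it are a common model of lung fibrosis. Macrophages exposed to interleukin-4 or interleukin-13 signal through Il4ra and the transcription factor Stat6 and switch on a set of genes known as alternative activation, among them Arg1, Retnla, Chil3 and the lectin receptors Mrc1 and Mgl2. Chitinase-like proteins are relatives of the chitin-cutting enzymes that have lost the cutting activity. In mouse lung these genes are not all macrophage genes: Chil3 is a known product of alveolar macrophages, Chil4 of airway epithelium under type 2 inflammation, and Chil1 is made by epithelium as well as macrophages. A count from a whole section sums over all cells, so more cells of a type and more RNA per cell cannot be told apart.

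The upstream sequences of Retnla and Retnlg are shown because these neighbouring genes on chromosome 16 were both higher after bleomycin and hold the same short pattern. Each line gives the 250 bases before the gene's start, 5′ to 3′, from RefSeq on GRCm38.p6 (Retnla at chr16:48842359-48842608 and Retnlg at chr16:48872358-48872607, both on the plus strand), with every motif match in capitals.
Retnla: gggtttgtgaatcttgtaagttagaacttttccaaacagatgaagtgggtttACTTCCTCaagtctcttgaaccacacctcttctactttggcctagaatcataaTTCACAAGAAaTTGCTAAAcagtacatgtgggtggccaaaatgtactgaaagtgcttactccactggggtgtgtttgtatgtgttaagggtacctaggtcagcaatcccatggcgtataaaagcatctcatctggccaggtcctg
Retnlg: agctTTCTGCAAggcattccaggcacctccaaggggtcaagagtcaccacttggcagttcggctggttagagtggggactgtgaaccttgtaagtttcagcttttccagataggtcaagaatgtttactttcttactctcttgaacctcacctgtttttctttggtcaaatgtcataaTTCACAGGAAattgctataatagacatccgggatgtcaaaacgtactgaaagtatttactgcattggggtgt
The STAT6 pattern TTCNNNNGAA was found as TTCACAAGAA at position -145 of Retnla and as TTCACAGGAA at position -72 of Retnlg. Positions count back from the gene's start. The other capitals include TTGCNNAA, the C/EBP pattern, at -134 of Retnla. In Retnlg this pattern lies on the other strand at -246, where the printed strand reads TTCTGCAA. The PU.1 pattern GAGGAAGT is in Retnla at -198, where it also lies on the other strand. Both strands were searched over 300 bases, from 250 before to 50 after the start. In Retnla the STAT6 and C/EBP matches lie 1 base apart and do not overlap. Of 32851 RefSeq windows of the same length, 6.95% hold the STAT6 pattern, 10.8% the C/EBP pattern and 3.20% the PU.1 pattern. Promoters of 9 members were matched, and in this set only Retnla and Retnlg hold the STAT6 pattern. The C/EBP pattern is held by Chil4 as well. Chil3 and Chil4 each hold TTCNNNGAA, a STAT pattern with a spacer of 3 bases that is present in 8.30% of the windows. A match is a run of letters, not a measured site.

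Chil3 and Chil4 lie on chromosome 3 as near copies, and their first 150 coding bases are shown because the likeness can affect the counts of both. The 3 bases that differ are in capitals, in GENCODE M21 transcripts.
Chil3: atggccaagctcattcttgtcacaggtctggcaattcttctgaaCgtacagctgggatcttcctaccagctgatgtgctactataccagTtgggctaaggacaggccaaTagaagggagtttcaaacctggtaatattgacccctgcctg
Chil4: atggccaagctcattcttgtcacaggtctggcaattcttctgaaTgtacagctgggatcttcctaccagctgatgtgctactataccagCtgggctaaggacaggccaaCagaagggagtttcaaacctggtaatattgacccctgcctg
Over the whole coding region 1139 of 1194 aligned bases (95.4%) were identical between Chil3 and Chil4, against 84.0% between Retnla and Retnlg and 60.1% between Chil1 and Chil3. Of all 50-base windows along the Chil3 transcript, 29.4% also occur in another gene, Chil4 or the model gene Gm6522. For Chil4 the share is 20.4%, and with windows of 100 bases the shares are 5.42% and 3.75%. Mgl2 shares 16.5% of its 50-base windows with other genes, among them its close relative Clec10a, the 1 gene that shares its 100-base windows (5.92%). How the authors treated reads that fit more than 1 gene is not given in the sources used here, so the counts of Chil3, Chil4 and Mgl2 are uncertain to that extent. The other 7 members had at most 0.091% of such windows.

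The libraries held 6337147 to 28885129 counts, with the batch 2 bleomycin libraries the shallowest group at 6337147 to 12982422. The members had 3 to 7953 counts per library. Bleomycin replicate 8 carries a title that names it a control, while its treatment label and library name give bleomycin. It was kept in the bleomycin group, and results that rest on it are given without it. Library names number the batch 1 bleomycin and the saline libraries in different ranges, so a difference behind those ranges cannot be told apart from treatment. Whether 1 animal gave 1 library is stated nowhere but in the replicate labels, and p-values cover the spread between libraries only. Defining lung genes were present in all libraries, such as Sftpc, the surfactant protein of alveolar type 2 cells, at 979 to 4366 CPM (counts scaled to a common library total).

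Of the 10 members, 4 rose after bleomycin in batch 1, namely Retnla, Retnlg, Mrc1 and Mgl2, and none fell. The call was an adjusted p under 0.05 in edgeR's quasi-likelihood test, adjusted by Benjamini-Hochberg over all genes tested. By the same rule 17.5% of the 20468 genes were called higher, 13.4% were called lower and 30.9% were called in either direction. An unadjusted p under 0.05 was found for 7 members, the 4 called and Chil4, Arg1 and Chia1, of which Chia1 alone was lower (unadjusted p = 0.0268 by edgeR); DESeq2 called all 7. The median log2 change was 1.19 over the members and 0.03 over all tested genes. In Retnla and Mrc1 every one of the 8 bleomycin libraries of both batches lay above every saline library, a separation that 9.37% of all tested genes showed.

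**Figure D1:**
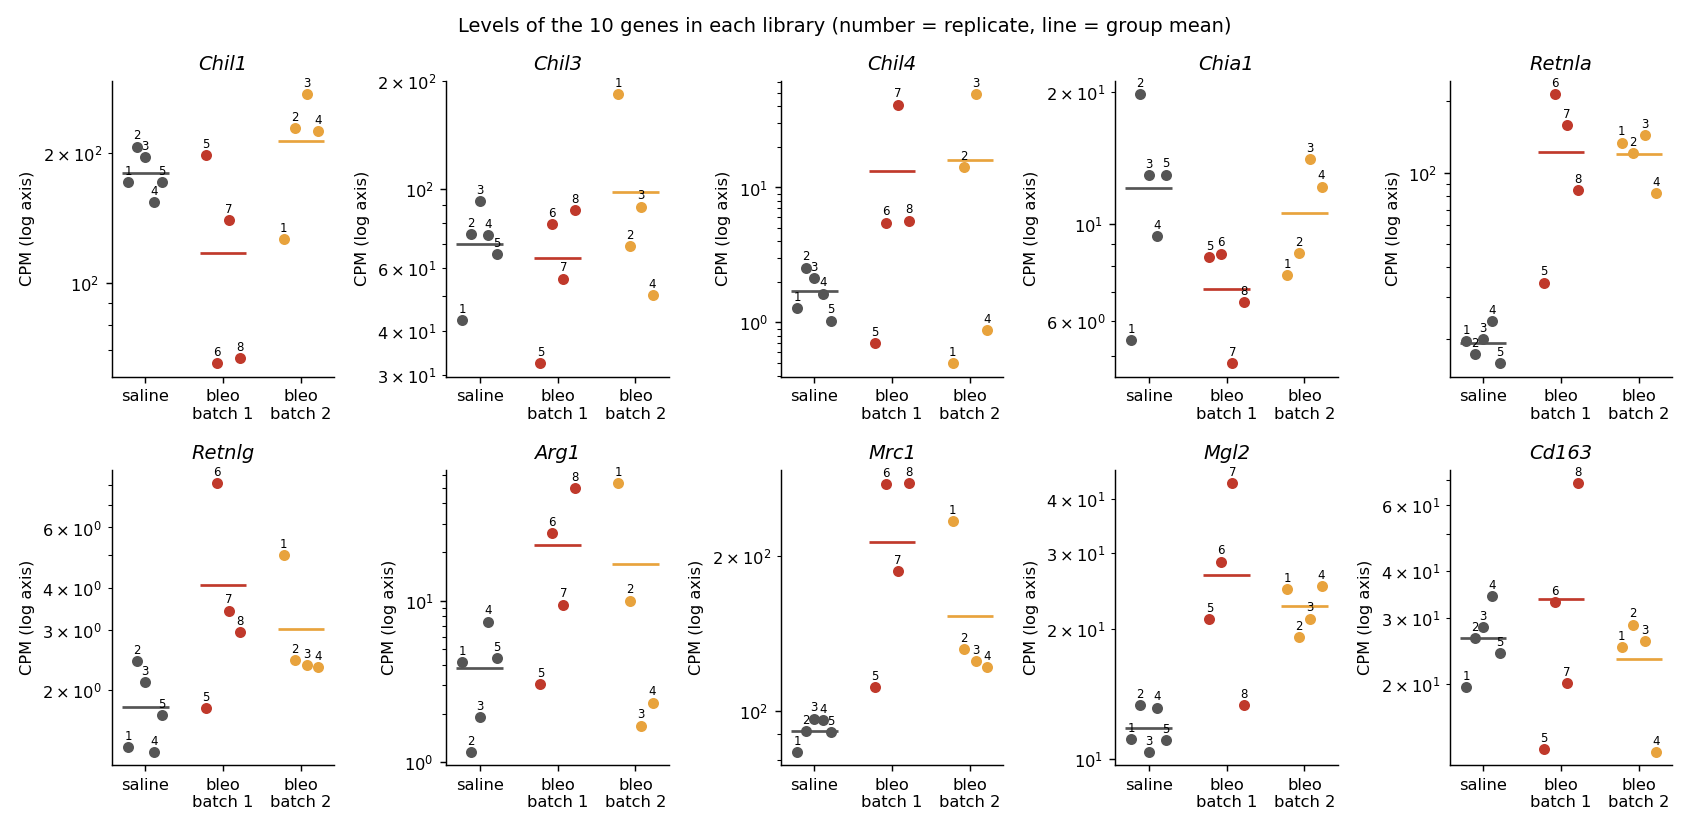
Level of each member in every library, in CPM on a log axis, with saline, batch 1 bleomycin and batch 2 bleomycin side by side and the group mean as a bar. Retnla and Mrc1 in bleomycin lie wholly above saline, while Chil4 and Arg1 spread over 98.1-fold and 31.5-fold among the 8 bleomycin libraries.

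Retnla encodes the secreted resistin-like molecule alpha (FIZZ1), a standard readout of alternative activation that airway epithelium also makes. Its level in saline was 19.6, 17.3, 19.995, 23.7 and 15.8 CPM in replicates 1 to 5. In batch 1 bleomycin it was 34.5, 213, 158 and 84.3 CPM in replicates 5 to 8, and in batch 2 bleomycin it was 134, 121, 143 and 82.0 CPM in replicates 1 to 4. No bleomycin library overlapped the saline libraries, and replicate 5 was the lowest of the 8. The log2 change in batch 1 was 2.66 (SE 0.43, adjusted p = 0.00102 by edgeR), a 6.34-fold rise from 19.3 ± 3.01 to 123 ± 78.9 CPM (SD, n = 5 and 4). Batch 2 bleomycin stood at 120.0 ± 27.0 CPM (SD, n = 4), a log2 difference of -0.03 (SE 0.44) from batch 1 bleomycin.

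Retnlg encodes resistin-like gamma, known as a product of neutrophils and bone marrow cells. It was a low gene, at 1.36, 2.44, 2.12, 1.32 and 1.69 CPM in saline replicates 1 to 5. Batch 1 bleomycin held 1.77, 8.09, 3.42 and 2.97 CPM and batch 2 bleomycin held 4.98, 2.45, 2.37 and 2.34 CPM. The groups overlapped: 5 of the 8 bleomycin libraries lay above all saline libraries, and replicate 6 was the highest. The log2 change was 1.20 (SE 0.41, adjusted p = 0.0350 by edgeR). The call rested on single libraries: without bleomycin replicate 6 the change was 0.62 (adjusted p = 0.246 by edgeR), and without saline replicate 1, 4 or 5 the adjusted p was 0.0810, 0.0884 and 0.0604. Beside 8 neutrophil markers, the mean log2 level of Retnlg was -1.63 relative to the markers in saline, -1.64 in batch 1 bleomycin and -1.68 in batch 2 bleomycin, and no bleomycin library lay outside the saline range. That range ran from -2.35 to -0.16, with its top set by saline replicate 2 alone and the next saline library at -1.78. Relative to the markers, Retnlg lay at -2.18 to -1.38 in batch 1 bleomycin and at -1.82 to -1.51 in batch 2 bleomycin. Of the 8 neutrophil markers tested, 2 rose, Csf3r (the receptor for the growth factor of neutrophils) by 1.11 (SE 0.35, adjusted p = 0.0313) and Mmp8 (a neutrophil collagenase) by 2.19 (SE 0.66, adjusted p = 0.0230). Neither was called without bleomycin replicate 6 or 8 or saline replicate 1, and 1 of the 2 was lost without bleomycin replicate 3 or saline replicate 2 or 5; both were lost with no low-count filter, with the deposited normalized table and with the replicate block. The summed level of the listed neutrophil markers was 69.6 to 109 CPM in saline libraries, 100.3 to 262 CPM in batch 1 bleomycin and 167 to 290.3 CPM in batch 2 bleomycin. Its largest part was Ltf, at 47.1, 129 and 169 CPM on average, which was not called (log2 change 1.46, adjusted p = 0.114 by edgeR). S100a8, S100a9, Cxcr2, Mmp9 and Il1r2 had log2 changes of 0.37 to 0.71 and were not called. Ngp, Camp, Ly6g and Stfa2l1 had too few counts to be tested. The part of neutrophils in the change of Retnlg was not tested.

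Mrc1 encodes the mannose receptor CD206, an endocytic lectin of tissue macrophages and of some endothelium. Saline libraries lay close together at 83.1, 91.1, 96.5, 95.8 and 91.0 CPM. Batch 1 bleomycin held 111, 276, 187 and 278 CPM in replicates 5 to 8, and batch 2 bleomycin held 234, 132, 125 and 122 CPM in replicates 1 to 4. All 8 were above saline, with replicate 5 the nearest to it. The log2 change was 1.22 (SE 0.26, adjusted p = 0.00407 by edgeR), from 91.5 ± 5.36 to 213 ± 80.0 CPM (SD, n = 5 and 4). Without replicate 8 the change was 1.03 (adjusted p = 0.0197 by edgeR).

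Mgl2 encodes CD301b, a galactose-binding lectin of dendritic cells and macrophages. It stood at 11.1, 13.3, 10.4, 13.1 and 11.03 CPM in saline, at 21.1, 28.6, 43.6 and 13.3 CPM in batch 1 bleomycin and at 24.7, 19.2, 21.1 and 25.2 CPM in batch 2 bleomycin. Among the bleomycin libraries 7 of 8 were above all saline libraries, and replicate 8 was inside the saline range. The log2 change was 1.18 (SE 0.25, adjusted p = 0.00231 by edgeR). Clec10a, the related lectin CD301a that shares sequence with Mgl2, rose as well, by 1.64 (SE 0.27, adjusted p = 0.000291 by edgeR) from 3.32 ± 0.246 to 10.4 ± 4.38 CPM (SD, n = 5 and 4).

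Cd163 encodes the receptor that takes up haemoglobin bound to haptoglobin and marks a subset of tissue macrophages. It was at 19.6, 26.4, 28.4, 34.2 and 24.1 CPM in saline and at 13.4, 33.02, 20.1 and 68.5 CPM in batch 1 bleomycin. Batch 2 bleomycin held 25.1, 28.8, 25.95 and 13.2 CPM. Replicate 8 alone was above saline, and replicates 4 and 5 were below it. The log2 change of 0.35 (SE 0.41) did not pass the test (adjusted p = 0.563 by edgeR), and it was -0.29 without replicate 8.

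Arg1 encodes arginase 1, which turns arginine into ornithine and urea and competes with nitric oxide synthase for the same substrate. Saline libraries held 4.18, 1.16, 1.90, 7.42 and 4.41 CPM. In batch 1 bleomycin the values were 3.05, 26.3, 9.45 and 49.5 CPM in replicates 5 to 8, and in batch 2 bleomycin they were 53.3, 10.0, 1.69 and 2.34 CPM in replicates 1 to 4. Among the bleomycin libraries 5 of 8 lay above all saline libraries and the other 3 lay among them, including 2 of batch 2. The fitted log2 change was large at 2.52, but its SE was 1.07 and it did not pass (adjusted p = 0.103 by edgeR). It was 1.71 without replicate 8.

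**Figure D2:**
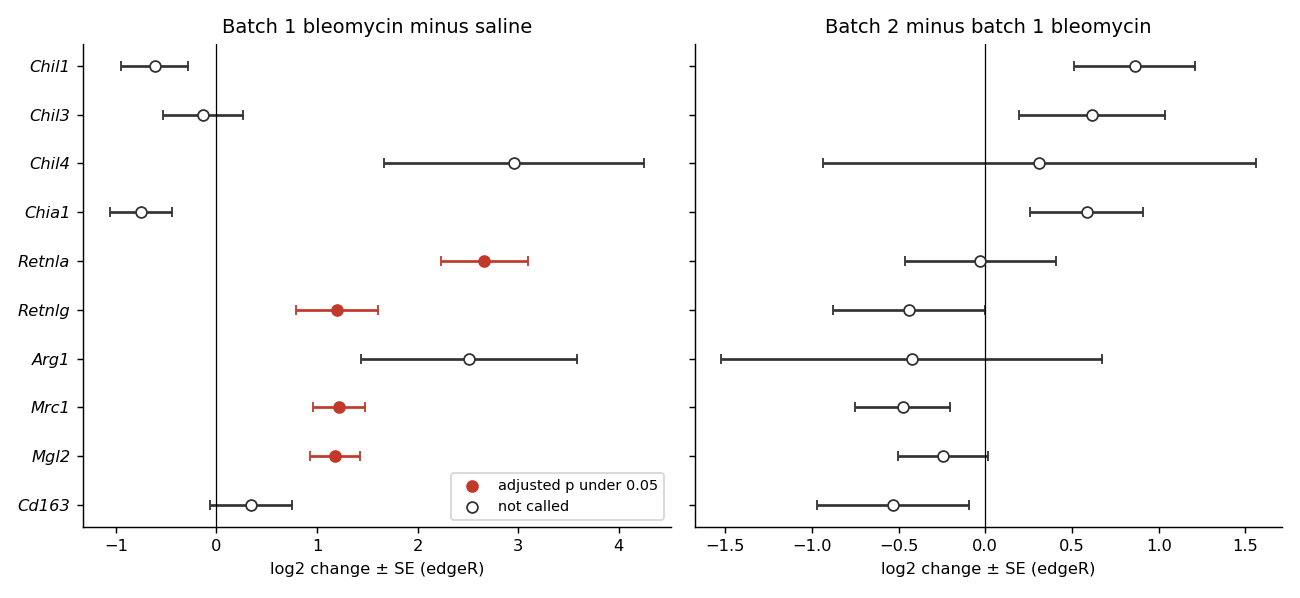
Log2 change of each member, batch 1 bleomycin minus saline on the left and batch 2 minus batch 1 bleomycin on the right, with edgeR standard errors as bars and filled points where the adjusted p is under 0.05. Retnla at 2.66, Mrc1 at 1.22, Retnlg at 1.20 and Mgl2 at 1.18 are the 4 filled points on the left, and the right side has none.

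The chitinase-like members did not pass the test in either direction. Chil1 encodes BRP-39, the mouse counterpart of YKL-40, and was the highest member per length in saline. It stood at 171, 207, 196, 154 and 171 CPM in saline, at 197, 65.4, 139.8 and 67.2 CPM in batch 1 bleomycin and at 126.4, 228, 273 and 225 CPM in batch 2 bleomycin. In batch 1, replicates 6, 7 and 8 were below all saline libraries and replicate 5 was inside their range, while in batch 2 replicates 2, 3 and 4 were above them. The log2 change of -0.61 (SE 0.33) had an adjusted p of 0.184 by edgeR, and without replicate 5 it was -0.98 (adjusted p = 0.0271 by edgeR).

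Chil3 encodes Ym1, a chitinase-like protein of alveolar macrophages. Its saline values of 42.8, 74.4, 92.1, 74.0 and 65.7 CPM overlapped with those of batch 1 bleomycin, at 32.4, 79.5, 56.0 and 87.1 CPM. Batch 2 bleomycin held 184, 69.0, 89.0 and 50.4 CPM, of which replicate 1 alone was above saline. The log2 change was -0.13 (SE 0.40, adjusted p = 0.835 by edgeR), and with the counts of Chil4 added to those of Chil3 it was 0.11.

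Chil4 encodes Ym2, known from inflamed airway epithelium. Saline libraries held 1.28, 2.55, 2.12, 1.63 and 1.03 CPM. Batch 1 bleomycin held 0.700, 5.49, 41.1 and 5.69 CPM in replicates 5 to 8, and batch 2 bleomycin held 0.498, 14.1, 48.9 and 0.879 CPM in replicates 1 to 4. The bleomycin libraries lay on both sides of saline, 5 above all saline libraries and 3 below, and their highest was 98.1 times their lowest. Replicate 7 had 1045 counts and replicate 1 had 3. The log2 change of 2.96 had an SE of 1.29 and did not pass (adjusted p = 0.111 by edgeR). Without replicate 7 it was 1.22 (adjusted p = 0.488 by edgeR).

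Chia1 encodes acidic chitinase, an enzyme of airway secretory cells that does cut chitin. It was at 5.41, 19.7, 12.9, 9.36 and 12.9 CPM in saline, at 8.40, 8.54, 4.802 and 6.62 CPM in batch 1 bleomycin and at 7.64, 8.57, 14.0 and 12.2 CPM in batch 2 bleomycin. One saline library, replicate 1, was lower than 7 of the 8 bleomycin libraries. The log2 change was -0.75 (SE 0.31, adjusted p = 0.0761 by edgeR), and without saline replicate 1 it was -0.95 (adjusted p = 0.0154 by edgeR).

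Levels of different genes were compared per kilobase of exon. In saline Chil1 was first at 64.1 CPM per kb, before Chil3 at 42.8 and Retnla at 32.2 CPM per kb. Mrc1 followed at 14.4, Chia1 at 6.34, Mgl2 at 5.63 and Cd163 at 4.86 CPM per kb, and Retnlg at 3.01, Arg1 at 1.71 and Chil4 at 0.611 CPM per kb were the lowest. Neighbours in this order overlapped between libraries except Retnla and Mrc1, and Mrc1 and Chia1. In bleomycin Retnla was first, at 205 CPM per kb in batch 1 and 200.3 CPM per kb in batch 2, before Chil1 at 41.9 and 75.9 CPM per kb. Chia1 was last in batch 1 at 3.73 CPM per kb, and Cd163 was last in batch 2 at 4.26 CPM per kb. In batch 1 bleomycin each pair of neighbours in the order overlapped.

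The members did not share an order among the bleomycin libraries. In batch 1, Arg1, Mrc1, Cd163 and Chil3 all ran from replicate 8 at the top through 6 and 7 to 5 at the bottom. Retnla and Retnlg ran 6, 7, 8, 5. Chil1 ran nearly the other way, with replicate 5 highest and replicate 6 lowest. Chil4 had its top in replicate 7, Mgl2 in replicate 7 and Chia1 in replicate 6. In batch 2, replicate 1 was the highest library for Chil3, Retnlg, Arg1 and Mrc1, while it was the lowest for Chil1, Chil4 and Chia1. Over the 8 bleomycin libraries, with each batch centred on its own mean, log2 levels of Mrc1 went with those of Chil3 at r = 0.93 and of Arg1 at r = 0.91, and against those of Chil1 at r = -0.96. These values describe 8 libraries that share their scaling and depth, and carry no test.

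No member was called between batch 2 and batch 1 bleomycin by the edgeR test, in which 1.68% of all tested genes were called, 0.547% higher and 1.13% lower. DESeq2 and limma-voom called 0 members there as well. The unadjusted p was under 0.05 for 1 member, Chil1, at a log2 difference of 0.86 (SE 0.35, adjusted p = 0.274). Chil3 stood 0.62 (SE 0.42) and Chia1 0.58 (SE 0.33) above batch 1, and Mrc1 at -0.48 (SE 0.28) and Cd163 at -0.53 (SE 0.44) below it. For Chil4 and Arg1 the standard errors of 1.25 and 1.10 leave wide intervals. Batch 2 has no saline library, so a difference between batches could not be set apart from the bleomycin response there.

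Markers of cell types were followed by the same test, which called 17.5% of all tested genes higher and 13.4% lower. Of 12 macrophage markers, 10 rose and 0 fell by edgeR (median log2 change 2.31; without bleomycin replicate 8, Mertk was called lower at -0.38), among them C1qc, a complement subunit made by macrophages, at 11.7 ± 2.01 CPM in saline and 76.1 ± 22.9 CPM in bleomycin of batch 1 (SD, n = 5 and 4; log2 change 2.703, SE 0.21, adjusted p = 1.53e-06 by edgeR). Their mean log2 level was 4.27 ± 0.12 in saline, 6.16 ± 0.36 in batch 1 bleomycin and 6.05 ± 0.20 in batch 2 bleomycin (SD, n = 5, 4 and 4), and their summed level was 1537 to 1912, 2039 to 2393 and 2596 to 3053 CPM. Most of that sum was Lyz2, at 1434, 1463 and 2112 CPM on average, which was not called (log2 change 0.03, adjusted p = 0.888 by edgeR). Relative to the mean log2 level of the markers, Mrc1 was at 2.24 in saline, 1.48 in batch 1 bleomycin and 1.15 in batch 2 bleomycin, and all 8 bleomycin libraries lay below all saline libraries. Mgl2 was at -0.71, -1.55 and -1.56, with 7 of 8 bleomycin libraries below saline. Cd163 was at 0.44, -1.35 and -1.57, and Chil3 at 1.81, -0.26 and 0.39, with 8 and 7 of 8 libraries below saline. Retnla was at -0.01, 0.48 and 0.82, with 5 bleomycin libraries above and 1 below all saline libraries. Arg1 was at -2.56, -2.35 and -3.25, with 2 above and 2 below. Chil1 went from 3.21 in saline to 0.55 and 1.63, and Chia1 from -0.79 to -3.35 and -2.67, with all 8 libraries of each below saline. Retnlg went from -3.39 to -4.31 and -4.47, with 7 of 8 below. The marker mean was 1.89 higher in batch 1 bleomycin than in saline, beside a median log2 change of 0.03 over all tested genes. A gene that rose less than the markers thus falls on this scale, and the share of all genes doing so was not counted. Bleomycin libraries were not mostly below saline for Retnla and Arg1 on this relative scale. For Chil4, 4 lay below and 3 above. These are descriptions without a test, and the part of macrophage number in the members' changes was not tested.

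**Figure D3:**
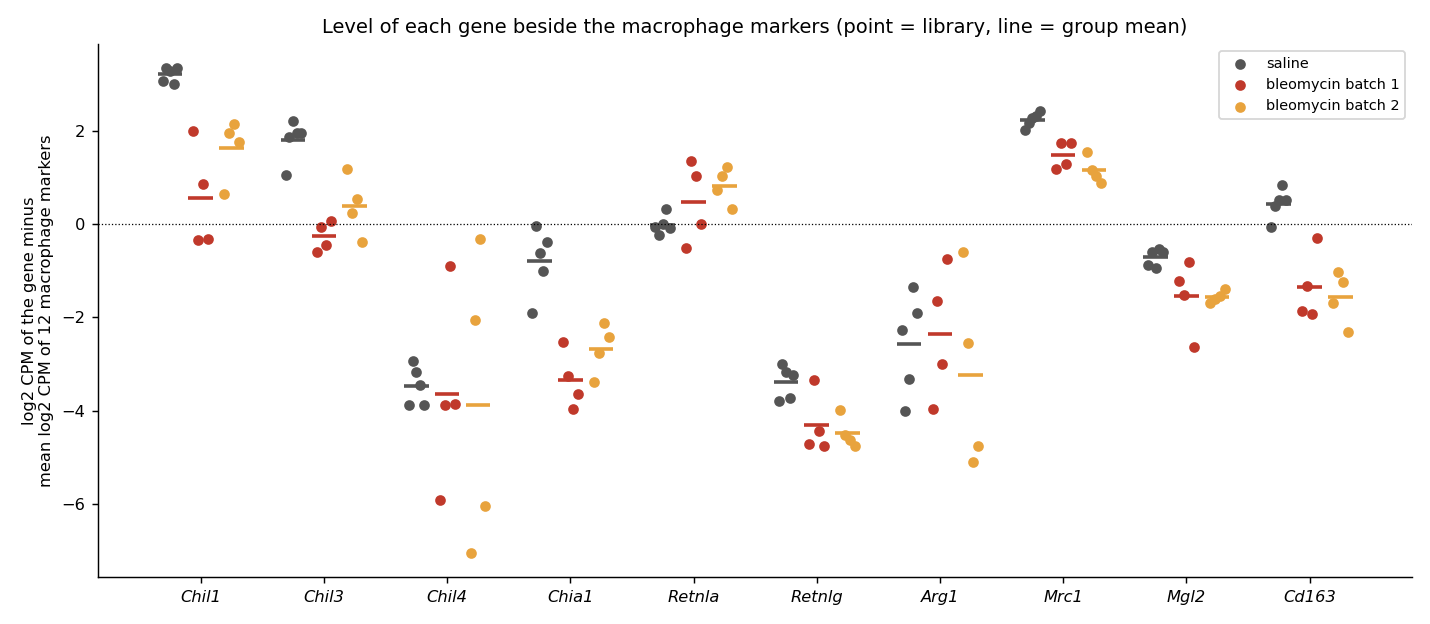
Log2 level of each member minus the mean log2 level of 12 macrophage markers, per library, for saline, batch 1 bleomycin and batch 2 bleomycin. Chil1, Chia1, Mrc1 and Cd163 lie below saline in all 8 bleomycin libraries, while Retnla lies above saline in 5. The marker mean was itself 1.89 higher in batch 1 bleomycin than in saline.

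Other marker lists bear on single members. Among 12 alveolar macrophage markers 2 rose, Atp6v0d2 and Ctsk, and 4 fell, Ear1, Krt79, Car4 and Fabp1, with a median log2 change of -0.64. The summed level was 234 to 519 CPM in saline libraries, 215 to 371 CPM in batch 1 bleomycin and 235 to 348 CPM in batch 2 bleomycin. Its largest part was Fabp4, at 148, 88.8 and 73.8 CPM on average, which was not called (log2 change -0.73, adjusted p = 0.461 by edgeR). Of 8 alveolar type 2 markers 4 fell by edgeR, Sftpc, Sftpb, Sftpa1 and Slc34a2, and 0 rose. Without bleomycin replicate 1 the number that fell was 7, and without replicate 6, 7 or 8 it was 3, with Sftpa1 lost. It was 2 without the low-count filter or without the batch term, and the replicate block gave 0 lower and 1 higher. Their summed level was 6783 to 8842 CPM in saline libraries, 2930 to 5654 CPM in batch 1 bleomycin and 3708 to 9166 CPM in batch 2 bleomycin. Against these markers, a reference chosen after the values were seen, the mean log2 level of Chil1 was -1.63 in saline, -1.57 in batch 1 bleomycin and -1.15 in batch 2 bleomycin. The 8 bleomycin libraries all lay outside the saline range of -1.70 to -1.55, 6 above and 2 below, with batch 1 spread from -2.07 to -1.18. Sftpc was 2269 CPM in replicate 5, where Chil1 was highest in batch 1, and 979 to 1369 CPM in replicates 6 to 8. The part of type 2 cells in the levels of Chil1 was not tested.

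Of 12 airway secretory markers 4 fell by edgeR, Scgb1a1, Scgb3a2, Cyp2f2 and Sec14l3, the club cell genes, and 0 rose. The summed level was 8011 to 14841 CPM in saline libraries, 3358 to 4615 CPM in batch 1 bleomycin and 2980 to 9039 CPM in batch 2 bleomycin. Muc5ac, the gel-forming mucin of goblet cells, and Clca1, another goblet cell product, did not pass the test, with log2 changes of 1.48 (SE 0.74, adjusted p = 0.157 by edgeR) and 3.28 (SE 1.26, adjusted p = 0.0747 by edgeR). Other settings called them: Clca1 with DESeq2 (adjusted p = 0.00965), Muc5ac by edgeR on batch 1 libraries alone (adjusted p = 0.00488), and both by edgeR without the batch term (adjusted p = 0.0203 and 0.0269). Elsewhere in the list, Agr2 and Scgb3a1 had positive log2 changes of 1.32 and 0.04 and were not called. Muc5b (-0.22), Bpifb1 (-0.19), Bpifa1 (-0.74) and Tff2 (-1.45) had negative log2 changes and were not called either. Clca1 was at 4.99, 25.6, 119 and 7.15 CPM in batch 1 bleomycin, 7.97, 147, 429 and 32.95 CPM in batch 2 bleomycin and 1.32 to 8.35 CPM in saline. Its highest library in each batch, replicates 7 and 3, was also the highest for Chil4. Muc5ac was highest in the same libraries, at 20.6 and 113 CPM, against 4.12 to 5.34 CPM in saline. In batch 2 Muc5ac was lowest in replicate 1, at 4.32 CPM, where Chil4 was lowest as well. Against the mean of all 12 airway markers, chosen in the same way, the log2 level of Chil4 was -5.51 in saline, -3.57 in batch 1 bleomycin and -4.40 in batch 2 bleomycin, with 5 of 8 bleomycin libraries above saline and 0 below. Chia1 was at -2.83, -3.28 and -3.21, with 3 below and 1 above. The part of goblet cells in the level of Chil4 was not tested.

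**Figure D4:**
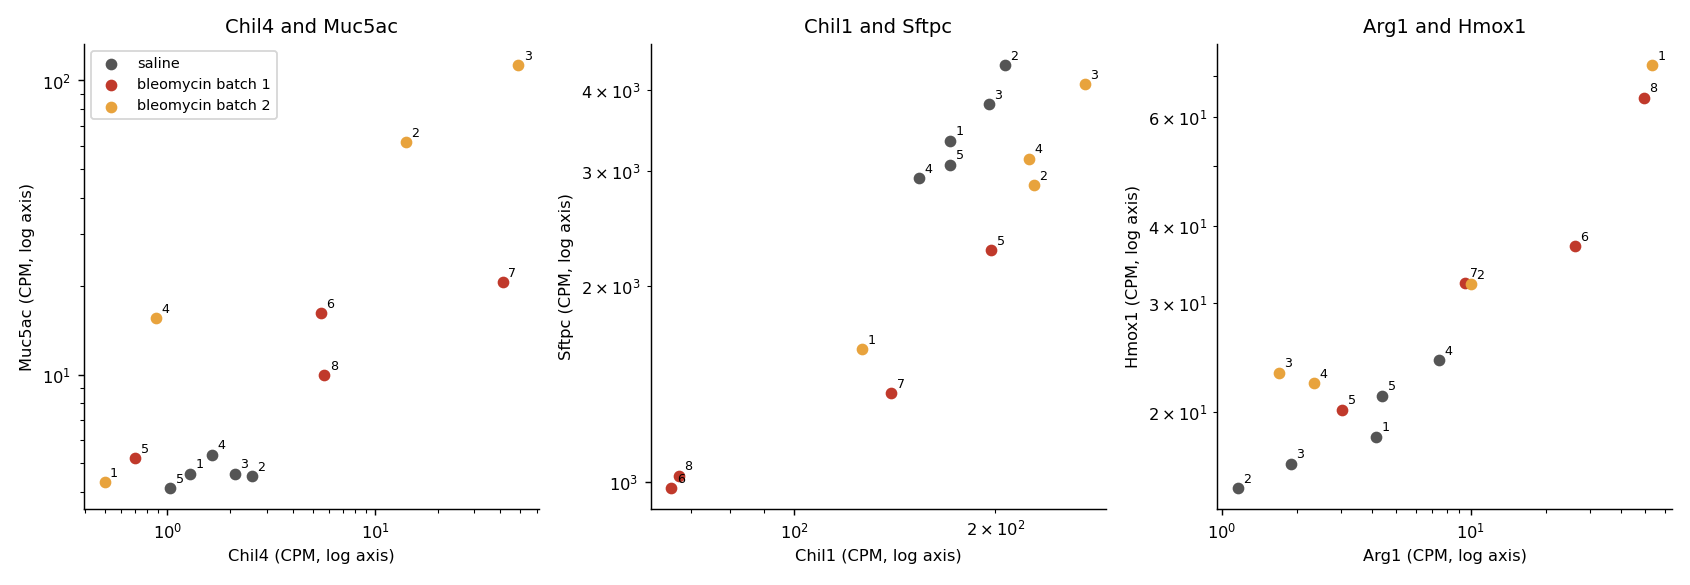
Levels in CPM on log axes of Chil4 and Muc5ac, Chil1 and Sftpc, and Arg1 and Hmox1, 1 point per library with its replicate number, in saline, batch 1 bleomycin and batch 2 bleomycin. The libraries with the highest Chil4 of their batch, at 41.1 and 48.9 CPM, also have the highest Muc5ac of it, and the libraries with Arg1 at 49.5 and 53.3 CPM have the highest Hmox1.

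Dendritic cell markers rose in 7 of 10 (median log2 change 1.86) with a summed level of 165 to 202 CPM in saline libraries, 420 to 705 CPM in batch 1 bleomycin and 562 to 651 CPM in batch 2 bleomycin, beside the rise of Mgl2. Against the mean of these markers, also a reference chosen after the values were seen, the log2 level of Mgl2 was 1.48 in saline, 0.95 in batch 1 bleomycin and 0.73 in batch 2 bleomycin, with 7 of 8 bleomycin libraries below all saline libraries. None of 6 tested eosinophil and mast cell markers was called by edgeR or had an unadjusted p under 0.05, at a summed level of 3.32 to 12.8 CPM over all libraries. Of 5 tested lymphatic markers 4 rose, namely Prox1, Flt4, Ccl21a and Reln, of which Flt4 was not called without bleomycin replicate 8 or saline replicate 4. Lymphatic endothelium is a known site of Mrc1, and its part in the level of Mrc1 was not tested.

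The pathway upstream of alternative activation was followed in 27 listed genes, of which 21 were tested. Of these, 10 rose and 3 fell (median log2 change 0.26), beside 17.5% of all tested genes called higher and 13.4% called lower. Il4ra, the shared receptor chain for interleukin-4 and interleukin-13, rose from 72.9 ± 11.1 to 212 ± 59.7 CPM (SD, n = 5 and 4; log2 change 1.54, SE 0.21, adjusted p = 0.000137 by edgeR). Jak1 and Jak3, kinases that sit on the receptor, rose by 0.56 (SE 0.09) and 1.12 (SE 0.13), and Il10ra, the receptor for interleukin-10, by 1.83 (SE 0.16). Stat6 was at 95.8 ± 3.28 CPM in saline and 106 ± 9.41 CPM in batch 1 bleomycin (SD, n = 5 and 4; adjusted p = 0.146 by edgeR). Those that fell were Gata3, a factor of type 2 lymphocytes, by 0.57, Il6ra by 0.58 and Csf2, the growth factor GM-CSF, by 1.34 (SE 0.48, adjusted p = 0.0432 by edgeR). Csf2 was a low gene, at 1.68 CPM on average in saline, 0.660 CPM in batch 1 bleomycin and 1.81 CPM in batch 2 bleomycin. Its call held in 2 of 13 fits that leave out 1 library, those without bleomycin replicate 7 and without saline replicate 2. On batch 1 libraries alone Csf2 was not called (adjusted p = 0.0722 by edgeR). The cytokines themselves were near the floor: Il4 had 15 counts over the 4 batch 1 bleomycin libraries and 2 over the 5 saline libraries, and Il13 had 2 and 0. Il4, Il13, Il13ra2, Il25, Il5 and Il10 were not tested for that reason.

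Other alternative activation genes rose in 12 of 20 and fell in 1, Cd36, with a median log2 change of 1.37. Cd36 (adjusted p = 0.0475 by edgeR) kept its call in 4 of 13 fits that leave out 1 library, those without bleomycin replicate 3 or 5 or saline replicate 4 or 5, and not on batch 1 libraries alone. Msr1, a scavenger receptor, rose by 3.36 (SE 0.44) from 3.34 ± 1.04 to 34.3 ± 14.6 CPM (SD, n = 5 and 4), and Trem2, a lipid-sensing receptor, by 3.19 (SE 0.45). Clec7a, the receptor for beta-glucan, rose by 2.06 (SE 0.23) and the chemokine gene Ccl22 by 2.22 (SE 0.30). Genes of classical activation rose in 15 of 18 tested and fell in 1, Il12a, with a median of 1.69; Il12a was not called without bleomycin replicate 5, 6 or 7. Among them Cd86, a costimulatory ligand, rose by 2.34 (SE 0.19), Irf5 by 1.89 (SE 0.16), and the interferon-induced chemokine genes Cxcl10 and Cxcl9 by 3.94 (SE 0.38) and 3.56 (SE 0.45). Both activation lists thus held more genes called higher than called lower, as did all tested genes (17.5% higher and 13.4% lower). The difference between the lists was not tested.

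**Figure D5:**
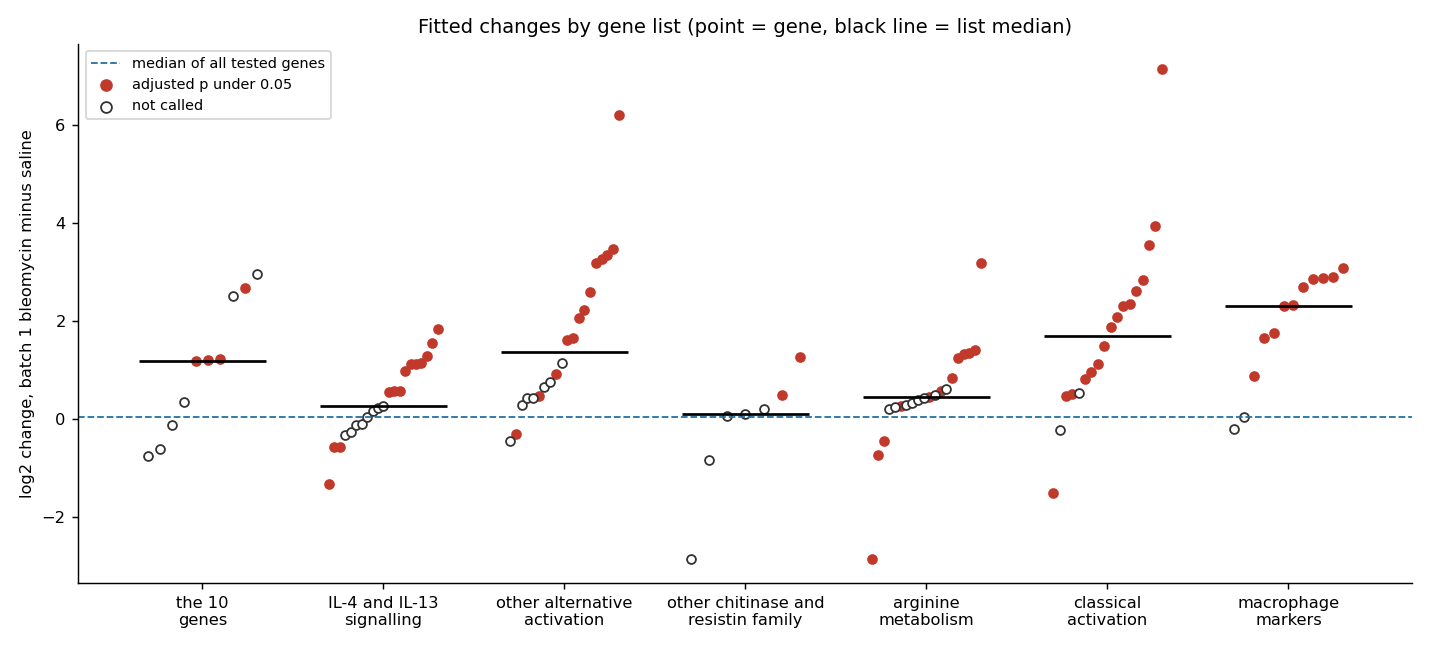
Log2 change of every tested gene of the 10 members, the pathway lists and the macrophage markers, batch 1 bleomycin minus saline, with 1 point per gene, filled where the edgeR adjusted p is under 0.05, a black line at the list's median and a dashed line at the median of all tested genes (0.03). The medians run from 0.10 for the other chitinase and resistin relatives to 2.31 for the macrophage markers.

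Arginine metabolism was followed in 20 genes, of which 9 rose and 3 fell, Nos1, Sms and Prodh (median log2 change 0.44). Over all tested genes, 17.5% were called higher and 13.4% lower. Nos1 kept its call in 3 of 13 fits that leave out 1 library (those without bleomycin replicate 4 or saline replicate 2 or 3) and Sms in 5 (without bleomycin replicate 1, 3 or 5 or saline replicate 1 or 2). Prodh kept it in all 13. Under the alternatives other than replicate 8 as saline, 6 to 13 genes were called higher and 1 to 3 lower. The 6 came without saline replicate 1 and with the replicate block, and the 13 without bleomycin replicate 5. Nos2, the inducible nitric oxide synthase that uses the same substrate as arginase 1, rose from 1.17 ± 0.831 to 11.5 ± 3.10 CPM (SD, n = 5 and 4; log2 change 3.19, SE 0.44, adjusted p = 0.00012 by edgeR). Unlike those of Arg1, its batch 1 bleomycin libraries, at 7.92 to 14.3 CPM, did not overlap saline at 0.232 to 2.01 CPM. Arg2, the mitochondrial arginase, rose by 1.25 (SE 0.28, adjusted p = 0.00333 by edgeR). Aldh18a1, which leads to proline, rose by 1.416 (SE 0.18), Gatm, which starts creatine synthesis, by 1.32 (SE 0.29), and the arginine carrier Slc7a1 by 0.56 (SE 0.12).

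Among 11 further chitinase and resistin relatives or their binding partners 7 were tested and 2 rose, Lgals3 (galectin-3) by 1.26 (SE 0.23, adjusted p = 0.00131 by edgeR) and Chid1, a chitinase-domain gene, by 0.48 (SE 0.11, adjusted p = 0.00378 by edgeR). Chit1, chitotriosidase, was at 2.32 ± 2.00 CPM in saline and 0.315 ± 0.336 CPM in batch 1 bleomycin (SD, n = 5 and 4) and did not pass (adjusted p = 0.0812 by edgeR). Retn, resistin itself, had a log2 change of -0.85 (SE 0.45, adjusted p = 0.171 by edgeR). Chil5, Chil6 and Retnlb had too few counts to be tested.

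The genes most like each member were sought among 12015 tested genes averaging 5 CPM or more, by Pearson's r of log2 CPM over the 13 libraries, as a description that treatment and shared scaling also shape. Chil1 went with Egfl6 and Hc at r = 0.95 each and Lama3 at 0.94. Chil4 went with Fcgbp at 0.87, Hps5 at 0.84 and Muc5ac at 0.82, where Fcgbp is another mucus protein gene. Arg1 went with Aldh1l2 at 0.97, Hmox1 (haem oxygenase, which breaks down haem) at 0.94 and Frrs1 at 0.93. Hmox1 was 64.6 CPM in replicate 8 and 72.9 CPM in replicate 1, the libraries with the most Arg1, and 15.1 to 24.3 CPM in saline (log2 change 1.01, adjusted p = 0.0690 by edgeR). Mrc1 went with Lox (the collagen cross-linking enzyme) and Fst at 0.98 each and Slc39a14 at 0.97. Genes like Mgl2 included Phf11d at 0.94 and H2-DMa at 0.93, the last a factor of antigen loading. Retnla went with Ptger2, Tmem176a and Adam10 at 0.96 each, and Retnlg with Runx1 at 0.94 and Gpatch2l and Cct6a at 0.91. The closest genes were less close for Chil3 (Ddx39a at 0.84, Ace and Mxd4 at 0.83), Chia1 (Mthfd1 and Ankrd42 at 0.80, Alas1 at 0.79) and Cd163 (Ints9 at 0.85, Med13l and F13a1 at 0.84).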

How the data were processed

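Total RNA libraries came from 8 ng of RNA per section and a stranded total RNA kit, per the labels' protocols. The deposited whole-number counts per gene were made by the authors; the submitters' processing notes name cutadapt 4.4, STAR 2.7.10b, featureCounts 2.0.3, DESeq2 1.42.1 and mm39, without roles. The strand setting, annotation release and use of molecular identifiers are not given in the sources. Among counts of 1 to 10, 78.4% to 86.1% were even, so reads of a pair appear to count as 2. A second table by the authors holds a normalized signal, the count divided by 1 size factor per library (0.394 to 1.94), from which 99.998% of values came out as whole reads within 0.05; it served for an alternative only.

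Counts were tested with edgeR 4.0.16 (R 4.3.3; filterByExpr over batch and treatment groups, TMM, robust glmQLFit, batch and treatment as terms). The treatment effect rests on 4 batch 1 bleomycin and 5 saline libraries, the batch effect on 4 and 4 bleomycin libraries. SE is the absolute log2 change divided by the square root of F. Levels are CPM from TMM-scaled totals, and log2 levels used a prior count of 2. On simulated counts for 20468 genes, the treatment test recovered 50.7% of 67 genes changed 2-fold and 84.8% of 66 changed 4-fold, with 4 false calls. Far fewer genes were changed there than the 6319 called in the data, so these rates need not hold for the data. The same replicate numbers did not mark paired libraries (r of deviations -0.349 to 0.0406). Lengths and transcripts came from GENCODE M21 on GRCm38, and 50671 symbols matched; no coordinates were joined to counts. Alignments used Biopython 1.88.

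The members and lists were chosen with earlier results of these data known, so nothing here is independent support. Named genes are all members, the 4 genes of lowest p in each list, every gene of a count of 5 or fewer and, for likeness, the 3 genes of highest r (1 of those for Mgl2 is not reported here); genes set beside a member (Clca1, Muc5ac, Clec10a, Nos2, Arg2, Stat6, Mertk, Hmox1) were named after their values were seen. The further genes given for the airway secretory, neutrophil, macrophage and alveolar macrophage lists were also named after their values were seen. Counting limits the precision: PCR reads are not independent molecules. Alternatives were other scalings and filters, DESeq2 1.42.0, limma 3.58.1 (log2 of the value plus 1 for the deposited table), no batch term, batch 1 alone, a replicate block, each library left out, replicate 8 counted as saline, Chil3 and Chil4 summed, and protein-coding genes only.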

Additional observations from a re-analysis of the deposited data

Results flagged for a closer look

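In 2 of the 30 groups of 4 or 5 libraries examined (10 members in 3 groups) 1 library stood apart from the rest; chance marks about 1 in 20 groups. Both belong to bleomycin replicate 1 of batch 2. Retnlg was 4.98 CPM there, against 2.34 to 2.45 CPM in replicates 2 to 4, with a gap of 0.943 of the group's range to the nearest library. Mrc1 was 234 CPM there, against 122 to 132 CPM in replicates 2 to 4, with a gap of 0.876 of the range. The limit for 4 libraries is 0.829. The same library also held the highest Chil3 (184 CPM) and Arg1 (53.3 CPM) of its batch.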

How the results depend on the processing

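The test of members under the low-count filter was not run, since all 10 passed. Of 4 members called higher and 0 lower, Mgl2 was called under 24 of 24 alternatives, Retnla and Mrc1 under 23 and Retnlg under 15. DESeq2 called 7 members, 1 of them lower (Chia1), and added Chil4 and Arg1. With single libraries left out the members called lower ranged from 0 to 1 (Chil1 without bleomycin replicate 5, Chia1 without saline replicate 1). With replicate 8 counted as saline, 1 member was called, 1 higher (Mgl2), and over all genes 645 in place of 6319. The changes were then 2.16 for Retnla (adjusted p = 0.0684 by edgeR), 0.65 for Mrc1 (adjusted p = 0.349 by edgeR) and -0.59 for Cd163. Among 65 list genes and genes set beside the members, 46 lost their call, including Il4ra, Jak1, Jak3, Msr1, Trem2, C1qc and Nos2. Of the 65, Aldh1l2, Chit1, Clca1, Fcgbp, Hmox1, Mertk, Muc5ac, Retn and Stat6 had no call to lose. The macrophage markers called higher went from 10 to 0. The cause was not tested.

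The replicate block, on numbers that share no source, called 3 members and 4747 genes; it sets mainly batch 2 bleomycin against saline. Under it Chil1 was at 0.19, Chil3 at 0.031 and Cd163 at -0.37, and Retnlg at 0.58 (adjusted p = 0.307 by edgeR) was not called. Chil3, near 0, was at 0.21 without the batch term and 0.11 with Chil4 summed. With single libraries left out Chil3 ranged from -0.35 to 0.090 and Cd163 from -0.29 to 0.61.

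The batch differences, none of them called, changed sign for Retnla with limma-voom (0.24) and with the deposited normalized table (0.25), for Chil4 with that table (-0.35), and for Arg1 (0.35) and Cd163 (0.065) with replicate 8 as saline. With single libraries left out they ranged from -1.32 to 2.04 for Chil4, -0.34 to 0.38 for Retnla, -0.78 to 0.14 for Retnlg, -2.23 to 0.35 for Arg1, -0.47 to 0.10 for Mgl2 and -0.80 to 0.067 for Cd163. Over all genes the batch test called 343, 737 with DESeq2, 102 with limma-voom, 85 with protein-coding genes only and 148 to 1093 with single libraries left out. Of 624 list counts, 64 moved by more than 1.5 times or to or from 0, 16 of them with replicate 8 as saline. Depth limits Retnlg most among the called members, at 16 to 233 counts per library, and Chil4 had 3 counts in 1 library.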
